A study of Arabidopsis thaliana with 10 samples.

Results

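The cysteine-rich receptor-like kinases (CRKs) of Arabidopsis thaliana were followed across 5 groups of whole seedlings. Members were the protein-coding rows of the deposited tables whose gene name contains both "cysteine-rich" and "kinase", which gave 41 of 38303 genes. Of these, 38 carry a CRK symbol, 1 is listed as EMB1290 and is also named CRK17, and AT4G20645 and AT4G28670 carry no symbol. Kinases related to calcium-dependent protein kinases that share the letters CRK were left out by the same rule. All 5 groups were of the accession Col-0 (Columbia-0), 12 days old, raised at 23 °C under days of 16 h light and 8 h dark, and had 2 libraries each. Wild-type seedlings received mock or 100 nM brassinolide (BL), the most active brassinosteroid, for 6 h; sample titles call the mock group non-treatment. Untreated wild-type seedlings stood beside untreated BEH2-YFP and BZR1-YFP seedlings, in which the tagged transcription factor is driven by the constitutive 35S promoter and therefore not restricted to its own tissues. The labels give 1 line per construct and do not say how many plants were pooled. The series asks whether BZR1 and BEH2, relatives that act at the end of brassinosteroid signalling, regulate different genes.

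CRKs sit in the plasma membrane. Outside the cell they carry DUF26 repeats, in which cysteines form a conserved framework, and inside the cell they carry a serine/threonine kinase. The family is known for work in immunity, in responses to reactive oxygen and in programmed cell death, and many members are induced by salicylate and pathogens. Brassinosteroid signalling also passes through receptor kinases at the plasma membrane, and it is known to trade growth against defence.

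The members were concentrated on chromosome 4, which held 37 of 41. In the RefSeq annotation of TAIR10.1, 29 members stood in 3 arrays, defined as 3 or more members with neighbouring starts within 50 kb. The largest ran from CRK5 to CRK24 (chr4:12117491-12191704, 74.2 kb) and held 19 members, 8 on the plus strand and 11 on the minus strand. An array from CRK36 to CRK40 (chr4:2231717-2292965) and one from CRK30 to CRK34 (chr4:6963521-6989793) held 5 members each. The median predicted protein had 660 residues. The shortest, that of AT4G20645, had 270 residues in 2 exons. This gene was counted by its name, and whether its protein holds a kinase was not checked. The spacing of a cysteine, 8 residues, a cysteine, 2 residues and a cysteine, which marks the DUF26 repeat, occurred in all 41 proteins and exactly 2 times in 37. Between members protein identity had a median of 42.6%. The closest pair were the neighbours CRK19 and CRK20, with 84.5% of residues and 90.2% of coding bases identical, so fragments of such pairs may have been divided between them in counting.

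Promoters are shown for 5 called members, as examples that are not typical of their groups. CRK36 and CRK13 were the only members called in both overexpression lines. CRK5 and CRK11 rose in BEH2-YFP, and CRK41 fell there. Each run is the 250 bases before the annotated gene start from the RefSeq genome of TAIR10.1, 5′ to 3′ on the gene's strand. Capitals mark the words TTGACC or TTGACT (W-box, bound by WRKY factors), CACGTG (G-box) and CATGTG (an E-box bound by BZR factors), on either strand.
CRK36 promoter, chr4:2234690-2234939, minus strand: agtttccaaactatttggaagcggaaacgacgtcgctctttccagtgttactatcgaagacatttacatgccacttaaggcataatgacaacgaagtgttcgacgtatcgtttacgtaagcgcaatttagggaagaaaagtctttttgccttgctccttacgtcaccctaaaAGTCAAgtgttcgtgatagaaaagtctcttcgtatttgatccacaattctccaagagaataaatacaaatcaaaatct
CRK13 promoter, chr4:12151639-12151888, minus strand: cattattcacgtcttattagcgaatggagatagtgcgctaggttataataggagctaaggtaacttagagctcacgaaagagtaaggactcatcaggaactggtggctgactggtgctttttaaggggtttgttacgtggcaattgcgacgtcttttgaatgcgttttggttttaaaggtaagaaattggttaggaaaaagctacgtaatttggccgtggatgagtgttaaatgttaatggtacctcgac
CRK5 promoter, chr4:12120221-12120470, minus strand: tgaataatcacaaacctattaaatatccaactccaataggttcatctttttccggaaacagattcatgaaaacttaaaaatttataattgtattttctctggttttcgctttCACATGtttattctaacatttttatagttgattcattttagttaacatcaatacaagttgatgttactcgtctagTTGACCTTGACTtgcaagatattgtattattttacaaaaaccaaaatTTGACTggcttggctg
CRK11 promoter, chr4:12143859-12144108, minus strand: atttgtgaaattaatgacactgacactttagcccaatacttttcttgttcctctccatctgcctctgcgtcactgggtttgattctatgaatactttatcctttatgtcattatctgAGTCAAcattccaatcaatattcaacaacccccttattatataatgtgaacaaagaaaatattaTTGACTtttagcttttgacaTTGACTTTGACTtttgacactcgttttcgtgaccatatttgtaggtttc
CRK41 promoter, chr4:418077-418326, plus strand: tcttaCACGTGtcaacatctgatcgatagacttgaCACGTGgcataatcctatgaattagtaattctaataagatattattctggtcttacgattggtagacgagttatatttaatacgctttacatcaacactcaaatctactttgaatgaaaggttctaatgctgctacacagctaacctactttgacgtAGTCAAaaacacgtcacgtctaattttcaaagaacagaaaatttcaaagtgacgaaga
CRK11 showed 4 W-boxes, CRK5 showed 3 with 1 E-box, CRK36 showed 1, CRK13 held none of these words, and CRK41 held 2 G-boxes with 1 W-box. The 4 W-boxes of CRK11 were the most in any member, and CRK41 was the only member with a G-box.

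Over the window from 250 bases before to 50 bases after the gene start, 27 of 41 members (65.9%) held a W-box, against 32.4% of 27443 protein-coding promoters. Median GC content was alike at 32.7% in the members and 32.0% overall. Members of an array descend from shared ancestors, so their promoters are not independent. The W-box was present in 8 of the 15 members that rose in BEH2-YFP, in all 4 that fell and in 12 of the 18 that were tested and not called. Of the words read by BZR factors only 3 exact ones were searched, and few members held them. CGTGCG (1 form of the brassinosteroid response element) occurred in 0 members against 1.96% of promoters, a share near the background. The G-box occurred in 1 member against 7.68%, and CATGTG in 3 members (7.32%) against 12.9%. Words on both strands were counted, each kind on its own, although neighbouring words can share bases (the G-box and CGTGCG have CGTG in common).

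Levels are given in FPKM (fragments per kilobase of transcript, normalised to the mapped fragments), with 1 value per gene and group, which the authors pooled over both libraries. The depth of each library is therefore unknown, and no spread between libraries can be shown. Calls come from the authors' deposited tables, with a q-value threshold of 0.05, and only called genes are said to have risen or fallen. A fold divides the FPKM of one group by that of the other, and ± gives a standard error on the log2 scale worked back from the deposited test statistic. The constructs stood out in their own lines: BEH2 was at 25.8 FPKM in untreated Col-0 and 2477 in BEH2-YFP, and BZR1 was at 13.8 and, in BZR1-YFP, 1265. Shoot and root markers were both present, with the photosynthetic gene RCA at 1456 to 4868 FPKM and the root genes PYK10 and CASP1 at 949 to 1781 and 26.6 to 40.6. LHCB1.1, one of several near-identical antenna genes, stood at 9.33 and 12.7 FPKM in the hormone experiment and at 3703 to 4823 in the other, so levels across the separate runs of the experiments need care.

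**Figure D1:**
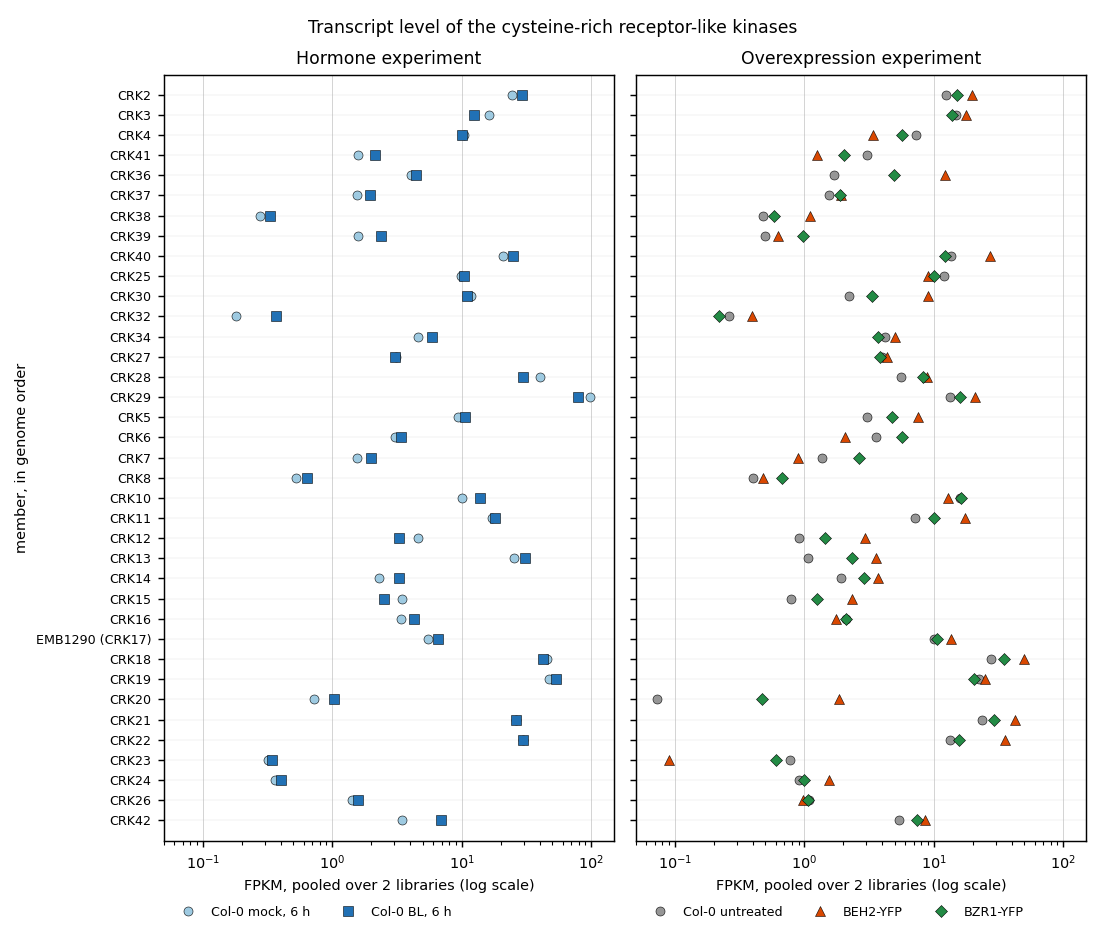
FPKM (log scale) of the 37 members tested in both the hormone and the BEH2-YFP comparison, in genome order, with hormone groups on the left and overexpression groups on the right. Each symbol is 1 value pooled over 2 libraries; BL symbols lie close to mock for most members, while BEH2-YFP symbols lie to the right of untreated Col-0 for 28 members.

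CRK transcripts covered a wide range in untreated Col-0. CRK18 was highest at 27.5 FPKM, followed by CRK21 (23.4), CRK19 (22.2), CRK10 (15.9) and CRK3 (14.7). The median member stood at 2.20 FPKM there, 28 of 41 reached 1 FPKM, and CRK33 and AT4G20645 were listed at 0 in every group. CRK31 (at most 0.362 FPKM) and AT4G28670 (at most 0.0241) were low in every group. These 4 members were not tested by the authors in any comparison, and CRK32 was tested in 2 of the 3. Summed over the 41 members, CRK transcripts came to 489.8 FPKM in mock and 487.1 with BL, and to 239.7 in untreated Col-0, 376.6 in BEH2-YFP and 273.3 in BZR1-YFP. The sum thus differed little within the hormone experiment and was highest in BEH2-YFP within the other. In whole seedlings fewer cells expressing a gene and less RNA per cell cannot be told apart.

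Brassinolide against mock asks which members respond to the hormone within 6 h. CRK42 rose and no other member was called. CRK42, on chromosome 5, stood at 3.47 FPKM in mock and 6.89 with BL, a 1.99-fold rise (log2 0.99 ± 0.20; q = 0.00175 in the authors' deposited table). It stood between those values in untreated Col-0, at 5.36 FPKM, and was at 8.52 in BEH2-YFP and 7.39 in BZR1-YFP. An annotated gene overlaps CRK42 on the opposite strand, and the use of strand in counting is not given in the sources used here, so reads of both cannot be told apart with certainty.

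Of 37 tested members 1 (2.70%) rose with BL in the authors' deposited table, against 3.01% of all tested genes, a share near the background. Cuffdiff called 0 members lower, against 2.45% of genes (5.46% in either direction). It left 6 of 37 members at an unadjusted p under 0.05 in either direction, beside 2994 of 22864 tested genes. The median log2 change of the members was 0.18 and that of all tested genes 0.00, with 27 members above 0 and 10 below. CRK3 (16.3 to 12.4 FPKM, q = 0.172) and CRK12 (4.62 to 3.25 FPKM, q = 0.204) were nearest to the threshold outside it in the authors' deposited table. Both were lower with BL without being called. The senescence genes SAG13 and ORE1 fell with BL, SAG13 from 18.0 to 11.3 FPKM.

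The most abundant members were not called between mock and BL. CRK22 went from 29.8 to 29.7 FPKM, CRK21 from 26.1 to 26.3 and CRK18 from 45.8 to 42.3. CRK29, the most abundant member of this experiment, went from 98.2 to 78.3 FPKM, and its overlapping neighbour CRK28, which is known to act with the co-receptor BAK1, from 40.0 to 29.4. The deposited log2 differences of these members lay between -0.44 and 0.01 with standard errors of 0.16 to 0.29. CRK19 (47.1 to 53.7 FPKM), CRK13 (25.3 to 30.5), CRK2 (24.5 to 29.3) and CRK40 (20.6 to 24.8) were higher with BL, also without a call.

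The BEH2-YFP line was set against untreated Col-0 to find genes that respond to more BEH2. Of 37 tested members 15 rose and 4 fell in the authors' deposited table, which is 40.5% and 10.8%, against 7.31% and 4.53% of all tested genes (11.8% in either direction). The median log2 change was 0.65 over the tested members and -0.01 over all tested genes. The rises ran from 1.59-fold to 25.3-fold with a median of 2.47-fold, and 10 of them reached 2-fold.

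Members known from immunity and cell death were among those that rose. CRK36, which is known to act with the cytoplasmic kinase BIK1 in the response to bacterial flagellin, stood at 1.68 FPKM in Col-0, 12.3 in BEH2-YFP and 4.96 in BZR1-YFP. BEH2-YFP was thus the highest of the 5 groups, above mock (4.06) and BL (4.43), and the rise over Col-0 was 7.30-fold (log2 2.87 ± 0.25). CRK20, whose induced expression is known to trigger cell death, stood at 0.0726 FPKM in Col-0, 1.84 in BEH2-YFP and 0.468 in BZR1-YFP. Its 25.3-fold rise (log2 4.66 ± 0.83) starts from a level close to 0 and has the widest error of the called members, and its near copy CRK19 was not called, at 22.2 and 24.8 FPKM.

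CRK13, known to raise salicylate-dependent resistance when overexpressed, stood at 1.06 FPKM in Col-0, 3.57 in BEH2-YFP and 2.32 in BZR1-YFP. The rise in BEH2-YFP was 3.38-fold (log2 1.76 ± 0.29). CRK5, which is linked to cell death, abscisic acid and leaf senescence, went from 3.05 FPKM in Col-0 to 7.53 in BEH2-YFP and 4.76 in BZR1-YFP. The BEH2-YFP value was 2.47-fold above Col-0 (log2 1.30 ± 0.23), with BZR1-YFP between them. CRK2, which is known to phosphorylate the oxidase RBOHD, rose 1.59-fold from 12.5 to 19.8 FPKM (log2 0.67 ± 0.18), and BZR1-YFP was at 15.1.

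Outside these, CRK30 rose 4.06-fold from 2.20 to 8.94 FPKM (log2 2.02 ± 0.24). CRK12 rose 3.25-fold from 0.907 to 2.95 FPKM, CRK15 2.99-fold from 0.784 to 2.34 and CRK22 2.65-fold from 13.3 to 35.2. Of these, CRK22 is the abundant one, and in BEH2-YFP it came to exceed CRK19. CRK11 rose 2.46-fold to 17.5 FPKM and CRK40 2.00-fold to 27.0. CRK14 (1.93-fold), CRK21 (1.81-fold), CRK18 (1.80-fold) and CRK42 (1.59-fold) completed the group that rose. CRK18 remained the most abundant member, at 49.4 FPKM.

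Of the 4 members that fell, CRK4, known like CRK20 for cell death upon induced expression, went from 7.27 FPKM in Col-0 to 3.38 in BEH2-YFP, with 5.63 in BZR1-YFP. That is a 2.15-fold fall (log2 -1.11 ± 0.22). CRK41 fell 2.41-fold from 3.03 to 1.26 FPKM (log2 -1.27 ± 0.29). CRK6, known to protect against oxidative stress outside the cell, fell 1.73-fold from 3.59 to 2.07 FPKM (log2 -0.79 ± 0.27), close to the threshold (q = 0.0437 in the authors' deposited table). CRK23 fell 8.57-fold, but from 0.776 to 0.0905 FPKM, both below 1 FPKM (log2 -3.10 ± 0.63).

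The members nearest to the threshold outside it were CRK29 (13.2 to 20.8 FPKM, q = 0.0553) and CRK38 (0.481 FPKM in Col-0, log2 change 1.19 ± 0.40, q = 0.0691 in the authors' deposited table). Abundant members without a call included CRK10, known from a gain-of-function allele that disturbs xylem, at 15.9 and 12.8 FPKM, and CRK3 at 14.7 and 17.8. CRK28 went from 5.61 to 8.86 FPKM (log2 0.66 ± 0.34) and was not called either. CRK45, a kinase named for the family whose gene name falls outside the rule, stood at 3.48 FPKM in Col-0, 4.94 in BEH2-YFP and 8.11 in BZR1-YFP without a call.

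Other features of the BEH2-YFP seedlings moved with these members. Of 4 genes of senescing tissue 3 rose there: SAG13 from 16.3 to 180 FPKM, SAG29 from 1.82 to 15.1 and ORE1 from 6.31 to 21.6, while SAG12 was at 0.247 and 0.429 without a call. The same 3 rose in BZR1-YFP, to 35.5, 9.90 and 12.4 FPKM, and SAG12 was not tested there. Over all tested genes 7.31% rose in BEH2-YFP and 1.15% in BZR1-YFP. The phloem marker SUC2 fell from 89.6 to 45.8 FPKM and the xylem marker XCP1 from 50.6 to 23.9 in BEH2-YFP, while the guard cell marker MYB60 rose from 10.5 to 17.2 and the other guard cell gene, FAMA, was at 9.64 and 11.7. The root hair gene LRX1 and the floral gene AP1 also fell in BEH2-YFP, AP1 from 3.61 to 0.120 FPKM. AP1 fell in BZR1-YFP too, to 1.63 FPKM, and LRX1 fell with BL, from 8.27 to 3.97 FPKM. Their part in the CRK result was not tested.

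**Figure D2:**
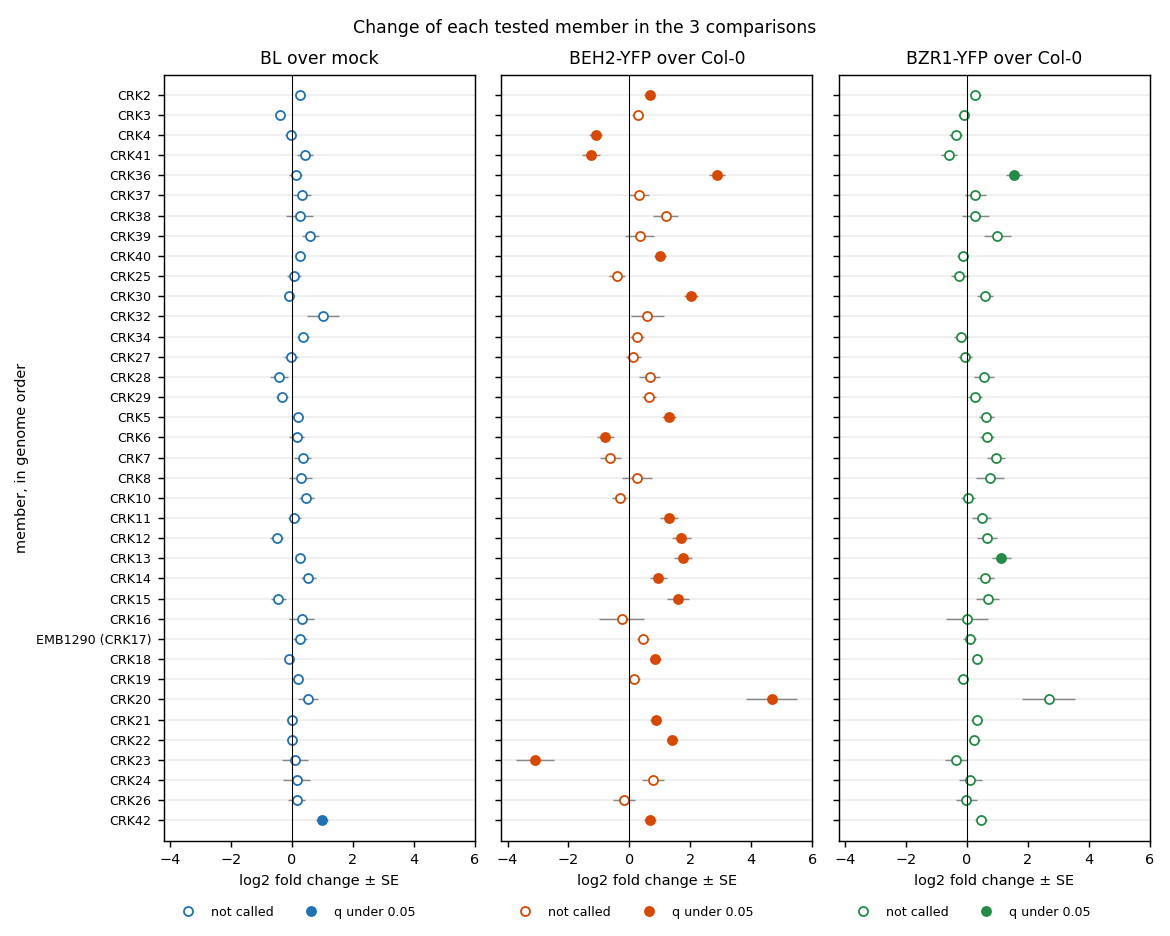
Log2 fold change of each tested member in the 3 comparisons, with the derived standard error as bars; filled symbols mark q-values below 0.05, as the authors' deposited tables give them. Filled symbols number 1 with BL, 19 in BEH2-YFP and 2 in BZR1-YFP.

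The BZR1-YFP line was compared with the same Col-0 libraries. Of 36 tested members 2 rose in the authors' deposited table, CRK36 and CRK13, and 0 fell, which is 5.56% and 0% against 1.15% and 0.478% of all tested genes (1.62% in either direction). Cuffdiff left 11 of 36 members at an unadjusted p under 0.05 in either direction, beside 1238 of 22605 tested genes. The median log2 change was 0.28 over the members and 0.00 over all tested genes. CRK36 rose 2.95-fold (log2 1.56 ± 0.26) and CRK13 2.19-fold (log2 1.13 ± 0.30).

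Members outside the threshold in BZR1-YFP came close to it. CRK7, known with CRK6 for protection against oxidative stress, stood at 1.37 FPKM in Col-0 and 2.66 in BZR1-YFP (q = 0.0502 in the authors' deposited table). CRK20 stood at 0.0726 and 0.468 FPKM (q = 0.0635) and CRK6 at 3.59 and 5.68 (q = 0.0803 in the authors' deposited table). All of these lay higher in BZR1-YFP without being called. At a q-value under 0.1 the count of members higher in BZR1-YFP was 5. The share of all genes at that threshold is not given here, so this count has no background.

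The lines share their Col-0 control, so the lines were compared directly, with the log2 change in BEH2-YFP less that in BZR1-YFP set against the derived standard errors of both in a two-sided normal test, and with p-values adjusted across 22336 genes (Benjamini-Hochberg). Of 36 members 4 were higher in BEH2-YFP and 3 were higher in BZR1-YFP, which is 11.1% and 8.33% against 2.31% and 1.28% of all genes tested (3.59% in either direction). The median difference was 0.36 on the log2 scale, and -0.01 over all genes.

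Higher in BEH2-YFP than in BZR1-YFP were CRK22 (35.2 against 15.6 FPKM, log2 difference 1.17 ± 0.26), CRK40, CRK30 and CRK36. CRK40 stood at 27.0 FPKM in BEH2-YFP, 12.2 in BZR1-YFP and 13.5 in Col-0. CRK30 differed 2.69-fold (8.94 against 3.32 FPKM) and CRK36 2.48-fold. For CRK36, which was called over Col-0 in both lines, BEH2-YFP was thus the higher line. For CRK13 the difference did not pass the test (log2 0.62 ± 0.42), nor did it for CRK20 (1.97 ± 1.20) or CRK5 (0.66 ± 0.33), which does not show that the lines act alike on them.

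Lower in BEH2-YFP than in BZR1-YFP were CRK6, CRK7 and CRK23. CRK6 and CRK7 are neighbours in the largest array and each other's closest relative, with 75.0% of residues identical. CRK6 stood at 2.07 FPKM in BEH2-YFP, 3.59 in Col-0 and 5.68 in BZR1-YFP (log2 difference -1.46 ± 0.36), and CRK7 at 0.890, 1.37 and 2.66 (-1.58 ± 0.47). For both genes Col-0 lay between the lines. CRK23 stood at 0.0905 FPKM in BEH2-YFP and 0.606 in BZR1-YFP, and its call ended when the standard error was taken from the p-value instead of the statistic.

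**Figure D3:**
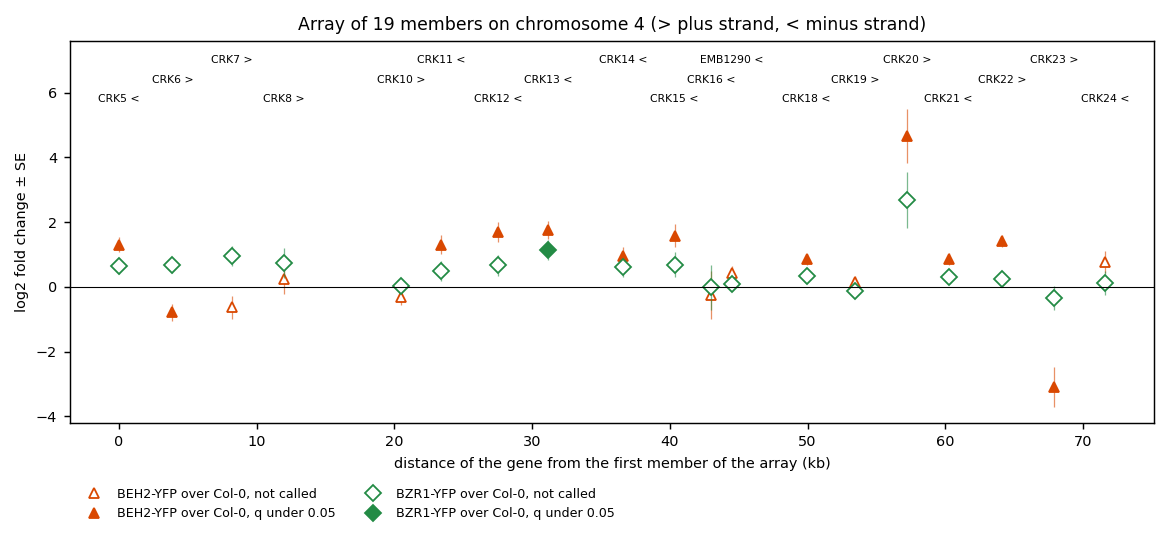
Log2 fold change in BEH2-YFP (triangles) and BZR1-YFP (diamonds) over Col-0 for the 19 members of the largest array, by distance from its first member in kb; bars are derived standard errors and filled symbols have a q-value under 0.05. The neighbours CRK11 to CRK15 are all filled for BEH2-YFP, and CRK6 and CRK7 lie below 0 for BEH2-YFP and above 0 for BZR1-YFP.

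By position, the array from CRK5 to CRK24 held 10 of the 15 members that rose in BEH2-YFP and 2 of the 4 that fell, among 19 tested; over all tested genes 7.31% rose and 4.53% fell. The neighbours CRK11, CRK12, CRK13, CRK14 and CRK15 all rose. Of the 11 members on the minus strand 8 rose and 0 fell, with a median log2 change of 0.95, and of the 8 on the plus strand 2 rose and 2 fell, with a median of -0.08. In BZR1-YFP the medians of both strands were 0.48 and 0.45. The split by strand was not tested. Strand and position cannot be told apart here, as the neighbours from CRK11 to CRK18 all lie on the minus strand. Within the span of the array EP1, also named CRK9 and described as kinase-related, rose from 6.70 to 13.1 FPKM in BEH2-YFP.

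The array from CRK36 to CRK40 had 2 of 5 tested members higher in BEH2-YFP (CRK36 and CRK40) and a median log2 change of 1.00. Its member CRK39, with 79.5% of residues identical to CRK40, was at 0.492 FPKM in Col-0 and 0.620 in BEH2-YFP without a call. The array from CRK30 to CRK34 had 1 of 3 tested members higher. The 12 members outside arrays had 10 tested, of which 2 rose and 2 fell, with a median log2 change of 0.20. Annotated genes of the same strand overlap for 4 members, the pairs CRK28 with CRK29 and CRK16 with EMB1290, so their reads may have been divided. None of these 4 was called in any comparison. Genes on the opposite strand overlap 5 members, CRK10, CRK11, CRK19, CRK25 and CRK42, of which CRK11 and CRK42 were called. The limit given for CRK42 holds for all 5.

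The controls of the experiments differed in CRK level. Their values come from separate Cuffdiff runs and are set side by side as levels without a test, and the mock treatment, the run and the experiment cannot be told apart. CRK13 stood at 25.3 FPKM in mock and 1.06 in untreated Col-0, a ratio of 23.9, and CRK29 at 98.2 and 13.2, a ratio of 7.43. CRK28 (40.0 and 5.61 FPKM) and CRK30 (11.7 and 2.20) showed the same order. So did CRK20, with a ratio of 9.9 from low levels (0.718 and 0.0726 FPKM). Of 37 members 13 were at least 2-fold higher in mock, which is 35.1%, against 8.38% of 22116 genes, and 2 were at least 2-fold lower, CRK23 and CRK24, against 7.08% of genes. The median log2 ratio of mock over untreated was 0.38 for the members and 0.19 for all genes.

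These levels bear on how the BEH2-YFP values read. The 15 members that rose over untreated Col-0 include 6 whose BEH2-YFP level stayed below that of mock Col-0: CRK2, CRK5, CRK12, CRK13, CRK15 and CRK30. CRK13 reached 3.57 FPKM in BEH2-YFP against 25.3 in mock. The other 9 lay above mock, with the highest ratio for CRK36 (12.3 against 4.06 FPKM). Of the 15, 14 stood higher in mock than in untreated Col-0, and 9 were at least 2-fold higher. Matching shares of all genes that rose in BEH2-YFP are not given here. The ratios of mock and of BEH2-YFP over untreated Col-0 use the same untreated libraries, so they are not independent.

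**Figure D4:**
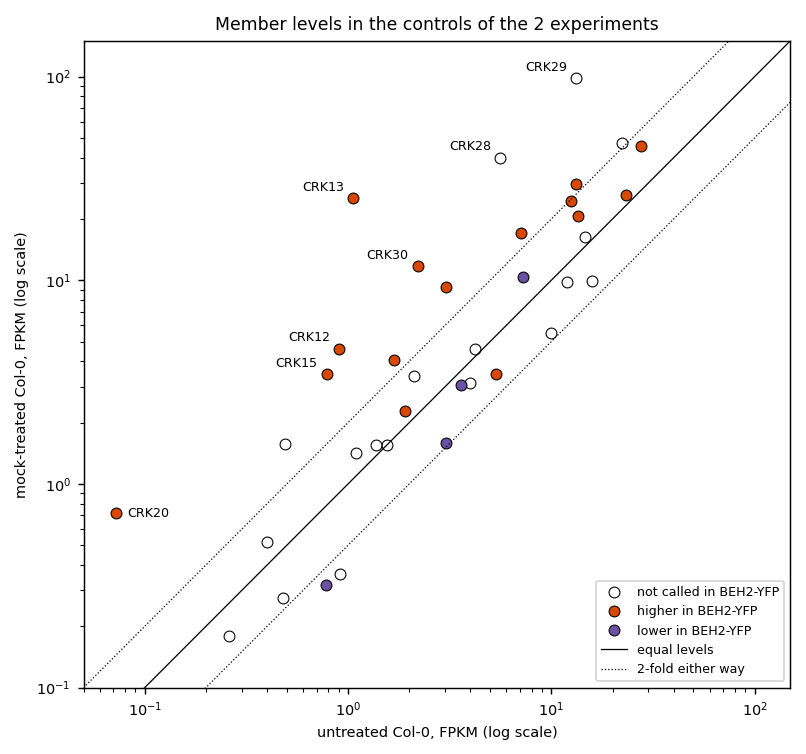
FPKM of the 37 members tested with BL and in BEH2-YFP, in untreated Col-0 (x axis) and mock-treated Col-0 (y axis), both on log scales. Each point is 1 member, coloured by the call in BEH2-YFP. The solid line marks equal levels and dotted lines a 2-fold difference. CRK13, CRK20, CRK28, CRK29 and CRK30 are among those far above the dotted line. The x values also enter the BEH2-YFP call.

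Relatives of the family and genes around it were read from lists of named genes. Their counts stand against 7.31% of all tested genes higher and 4.53% lower in BEH2-YFP, and 3.01% and 2.45% with BL. For BZR1-YFP these shares were 1.15% and 0.478%. In either direction, 2994 of 22864 tested genes with BL and 1238 of 22605 in BZR1-YFP had an unadjusted p under 0.05 (Cuffdiff). Plasmodesmata-located proteins (PDLPs), which carry DUF26 repeats without a kinase and regulate traffic between cells, showed 1 of 8 (12.5%) higher in BEH2-YFP, PDLP1 (1.74 to 3.82 FPKM), and 0 lower. Cuffdiff called 0 of 8 with BL and in BZR1-YFP, where 4 and 1 had an unadjusted p under 0.05. Of 46 other secreted DUF26 proteins 11 were tested in BEH2-YFP and 4 (36.4%) rose: AT1G61750, AT3G22060, AT5G41300 and EP1. Cuffdiff called 0 of these with BL and in BZR1-YFP, with 2 at an unadjusted p under 0.05 in each. AT3G22060 was the abundant one, at 31.6 FPKM in Col-0 and 78.0 in BEH2-YFP.

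Among 13 partners of immune receptor signalling 3 (23.1%) rose in BEH2-YFP and 0 fell. FLS2, the flagellin receptor, rose 4.21-fold from 7.85 to 33.1 FPKM, BIK1 from 11.1 to 19.7 and RBOHD, the oxidase that makes extracellular reactive oxygen, from 24.2 to 34.6. The co-receptor BAK1 was at 21.4 and 21.6 FPKM. With BL 1 of the 13 (7.69%) fell, EFR, the receptor for bacterial elongation factor, from 4.93 to 1.68 FPKM. Cuffdiff called 0 of the 13 in BZR1-YFP, with 2 at an unadjusted p under 0.05.

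Of 15 WRKY factors and salicylate genes 4 (26.7%) rose and 5 (33.3%) fell in BEH2-YFP. WRKY18, which with WRKY40 and WRKY60 is known to bind W-boxes of CRK5, stood at 7.51 FPKM in Col-0, 46.6 in BEH2-YFP and 15.4 in BZR1-YFP and rose in both lines. WRKY60 rose from 9.02 to 40.7 FPKM in BEH2-YFP while WRKY40 fell from 8.70 to 2.20. The salicylate marker PR1 and the regulator SARD1 also rose there, whereas PR2, PR5, WRKY33 and WRKY70 fell, so the list did not move one way. With BL WRKY18 (52.1 to 79.0 FPKM), WRKY60, WRKY70, SARD1 and PR1 rose, and WRKY40 and PR2 fell. In BZR1-YFP WRKY18 was the 1 gene of the 15 that was called. Among 115 other genes named as receptor kinases, a set chosen after results were seen, of which 91 were tested in BEH2-YFP, 10 rose and 6 fell there (11.0% and 6.59%, beside 7.31% and 4.53% of all tested genes), with a median log2 change of 0.06.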

How the data were processed

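Messenger RNA of 10 libraries in 5 groups of 2 was sequenced with a stranded kit, per the labels. The submitters' processing notes name TopHat2 2.0.13, Cuffdiff 2.2.0 and the build TAIR10. How reads were trimmed and whether counting used strand is not given in these sources. The authors deposited 3 tables whose values, per the file headers, are the FPKM of each group, pooled over its libraries, the log2 fold change, the test statistic (a score of Cuffdiff) and its p-value and q-value. Fold values are ratios of the deposited FPKM without a pseudocount. The smallest deposited p-value is 5e-05. Counts per library were not used here, so depth, spread between libraries, intervals and detection limits are unknown. The p-values are those of Cuffdiff and rest on only 2 libraries a group, which the labels call biological replicates.

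Members and lists were chosen with earlier results of these data known. The name rule for secreted DUF26 proteins also matched 19 genes of the superfamily of PR1, which do not carry that domain and were left out. The standard error was the absolute log2 fold change over the test statistic and a constant (1.43 in the BL and BZR1-YFP tables, 1.42 in that of BEH2-YFP). This constant was the median ratio of the deviate that the p-value has under a normal curve to the statistic, over genes with p-values from 0.0002 to 0.9. The test of the difference counts the Col-0 error in both standard errors. In the tables of both lines the Col-0 values were identical for all 38303 genes and the q-values do not equal an adjustment within the table, as they do with BL.

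Named were the called members, the most abundant, those of textbook role and those nearest to the threshold. Proteins were translated from the RefSeq annotation for identity only, over the shorter protein. Software was Biopython 1.88, SciPy 1.17.1, pandas 2.3.3, numpy 2.4.6 and matplotlib 3.10.9 under Python 3.11.15.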

Additional observations from a re-analysis of the deposited data

Results flagged for a closer look

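For 7 members the effects of the lines over the shared Col-0 differed by the test of the difference itself. On the log2 scale the change in BEH2-YFP less that in BZR1-YFP was 1.31 for CRK36, 1.15 for CRK40, 1.43 for CRK30 and 1.17 for CRK22. It was -1.46 for CRK6, -1.58 for CRK7 and -2.74 for CRK23. With 1 pooled value per group no single library could be examined for standing apart.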

How the results depend on the processing

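Of 84 values recomputed for counts of called members and medians, 80 kept their direction and stayed within 1.5 times the count or 1 standard error of the median. The 80 include values that could not change, such as those of the identity alternative below. They also include the count of members higher in BEH2-YFP by at least 2-fold, which was 10 against 15. The call of CRK42 with BL ended when a 2-fold change was also required (0 members), and 0 members were called with BL when members overlapping another gene were left out, a setting chosen after seeing the data, since CRK42 is one of them. In BZR1-YFP 5 members were higher at a q-value under 0.1, a count without the share of all genes at that threshold. With 1 FPKM added before the logarithm and the 4 untested members included, so over 41 members, the median change in BEH2-YFP was 0.26; the cause was not tested. Adjusting within the table added CRK29 and CRK38 to those higher in BEH2-YFP. At a q-value under 0.01 CRK6, CRK14, CRK20 and CRK42 lost their BEH2-YFP call. CRK36 and CRK7 lost their call between the lines there. Requiring a 2-fold change ended the BEH2-YFP calls of CRK2, CRK6, CRK14, CRK18, CRK21 and CRK42. For single members these settings changed only the call and reused the same log2 change. A reversal of a member could therefore not occur and was not tested. No member was 90% identical to another protein, so that alternative left out none. Leaving out a replicate was not run, and No paired analysis was possible because the columns hold 1 pooled value per group and carry no replicate. Depth limits are unknown for the members below 1 FPKM, CRK20 and CRK23 among them.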
